A study of Mus musculus with 13 samples.

Results

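Polo and Aurora kinases are serine/threonine kinases that drive cells into and through mitosis. The gene group described here holds 10 genes of the 57010 listed: the Polo-like kinases Plk1, Plk2, Plk3 and Plk4, the Aurora kinases Aurka and Aurkb, and the activators Bora, Tpx2, Incenp and Birc5. The genes were chosen by family and role, from their expected counts across the 4 groups of samples and with earlier results of these counts known. Their levels and differences are therefore given as a description. No p-value of a single member is printed, and calls that use p-values serve only to sort and count the genes. All 10 passed the filter on low counts that left 15034 genes.

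The RNA came from mouse embryonic fibroblasts (MEFs), primary wild-type (WT) cells grown from embryos with the viscera removed. Control MEFs carry the label Untreated. The senescent MEFs had received 2 μM etoposide, a topoisomerase II poison that breaks DNA, for 24 h and then 5 days in medium. Senescent MEFs were left untreated or given Fucoidan-FV, sulfated polysaccharides from the seaweed Fucus vesiculosus, at 100 or 300 μg/mL for 12 h, so both treated groups also carry the etoposide treatment. Each of the 4 groups has samples of mice 4, 5 and 6, and control mouse 5 has libraries 5(1) and 5(2), which were summed. A mouse number is the label's word, and nothing further is given on whether it stands for an embryo, a litter or a culture.

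In dividing cells, Bora helps Aurora A to switch on Plk1 before mitosis, Plk1 then promotes the activation of CDK1 with cyclin B, and Plk4 starts the duplication of centrioles. Tpx2 binds Aurora A on spindle microtubules and holds it active, while Aurora B works in the chromosomal passenger complex with the scaffold INCENP, survivin (encoded by Birc5) and borealin. The mitotic members of these families are transcribed late in the cell cycle, under the MuvB complex with B-MYB and FOXM1, and are repressed when p53 and p21 act. Plk2 and Plk3 differ from them: both are known as genes induced by growth factors or stress, and Plk2 is also a p53 target. RNA of bulk cultures was measured, so a lower share of cycling cells and less RNA per cell cannot be told apart in any value below.

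The promoters of members that moved together and of those that did not are shown first, as 300 bases from 250 before to 50 after the annotated start, taken from RefSeq on the build GRCm38.p6. RefSeq promoters were matched for 6 of the 10 genes, Plk1, Plk2, Plk3, Plk4, Aurka and Birc5. Capitals mark TTTGAA, the form of the cell cycle genes homology region searched for here, CCAAT, the box bound by NF-Y, and TGACGTCA, the full cAMP response element. Plk1 and Aurka are shown as the mitotic members whose promoters hold TTTGAA and CCAAT, which those of Plk4 and Birc5 do not, and Plk2 and Plk3 as the kinases not called in senescence.
Plk1 promoter, chr7:122159185-122159484, plus strand: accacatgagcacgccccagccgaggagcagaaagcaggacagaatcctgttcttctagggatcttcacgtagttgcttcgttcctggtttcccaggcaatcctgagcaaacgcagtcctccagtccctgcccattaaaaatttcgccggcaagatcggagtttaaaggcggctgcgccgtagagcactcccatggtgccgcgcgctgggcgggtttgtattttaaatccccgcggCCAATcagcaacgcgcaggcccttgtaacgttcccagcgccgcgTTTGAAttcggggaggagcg
Aurka promoter, chr2:172370521-172370820, minus strand: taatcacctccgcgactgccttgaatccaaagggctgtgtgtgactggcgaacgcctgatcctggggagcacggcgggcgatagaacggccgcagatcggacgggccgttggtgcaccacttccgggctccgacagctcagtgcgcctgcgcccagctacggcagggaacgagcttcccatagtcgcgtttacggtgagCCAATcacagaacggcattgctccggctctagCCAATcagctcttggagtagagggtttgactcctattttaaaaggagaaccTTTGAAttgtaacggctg
Plk2 promoter, chr13:110394794-110395093, plus strand: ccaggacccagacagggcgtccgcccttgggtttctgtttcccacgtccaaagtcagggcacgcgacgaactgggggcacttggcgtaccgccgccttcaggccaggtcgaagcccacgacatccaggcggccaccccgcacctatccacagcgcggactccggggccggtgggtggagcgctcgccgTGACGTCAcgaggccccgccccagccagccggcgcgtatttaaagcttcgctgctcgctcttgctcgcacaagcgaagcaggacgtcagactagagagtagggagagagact
Plk3 promoter, chr4:117133914-117134213, minus strand: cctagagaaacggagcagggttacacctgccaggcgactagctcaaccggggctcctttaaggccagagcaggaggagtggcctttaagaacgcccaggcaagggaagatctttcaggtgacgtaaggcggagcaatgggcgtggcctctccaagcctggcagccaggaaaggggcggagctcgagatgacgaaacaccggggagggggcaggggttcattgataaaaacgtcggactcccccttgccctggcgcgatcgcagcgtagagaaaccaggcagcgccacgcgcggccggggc
Both strands were searched, with TTCGAA as a further form, and none of the motifs overlaps another in these promoters. Counted from the start site, Plk1 held CCAAT at −14 and TTTGAA at 31, and Aurka held CCAAT at −51 and −19 and TTTGAA at 33. Plk2 held TGACGTCA at −62, and the windows of Plk3, Plk4 and Birc5 held none of the 4 motifs. Of 32544 mouse promoters of the same length, 17.8% held TTTGAA, 1.56% TTCGAA, 37.4% CCAAT and 1.80% TGACGTCA, so single matches of the short motifs are common. A match is a description of letters and was not tested as a site.

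The libraries held 22782536 to 31278750 expected counts, and the CPM values below are counts set relative to these totals after TMM scaling. Fibroblast markers summed to 9487 to 15812 CPM in every sample, here without TMM factors. Markers of blood cells reached 14.2 CPM at most and those of epithelium 1.95 CPM, and no marker on these lists was at 0 in all samples. Endothelial markers summed to 0.168 to 1.85 CPM in control, 1.33 to 1.82 CPM in senescent MEFs, 6.41 to 9.53 CPM at 100 μg/mL and 3.94 to 8.57 CPM at 300 μg/mL, apart between senescent and treated samples. Skeletal muscle markers summed to 73.2 to 112 CPM in control and 68.5 to 88.5 CPM in senescent MEFs, against 13.6 to 59.5 CPM at 100 μg/mL and 18.6 to 46.8 CPM at 300 μg/mL, and neural markers to 29.3 to 73.0, 29.8 to 44.7, 64.7 to 107 and 63.8 to 92.0 CPM in the same order. The filter on low counts kept 1 of 4 skeletal muscle markers, 1 of 4 epithelial, 3 of 4 endothelial and 3 of 4 neural ones. Some of these sums thus rest on few genes. The part of these markers in the treated differences below was not tested.

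TPM values, relative transcript numbers per length and library, were used to order the genes within a group. In control MEFs the order by mean TPM ran from Plk2 (102 ± 9.16, SD, n = 3) and Tpx2 (81.5 ± 7.31) through Aurka (61.5 ± 11.9), Incenp (52.8 ± 9.17), Plk1 (48.3 ± 14.7), Birc5 (48.1 ± 18.7) and Aurkb (35.9 ± 7.83) to Plk3 (24.4 ± 4.35), Plk4 (20.1 ± 2.16) and Bora (18.5 ± 8.43). From Aurka to Aurkb each neighbouring pair in this order lay within the spread of the mice, as did Plk3, Plk4 and Bora. In senescent MEFs Plk2 still stood at 93.4 ± 17.9 TPM, while Plk3 came next at 17.4 ± 1.03 TPM, Tpx2 followed at 13.4 ± 2.63 TPM, and Plk1 was last at 2.19 ± 2.05 TPM. With Fucoidan-FV, Plk2 stayed first in level (119 ± 23.6 TPM at 100 μg/mL and 105 ± 26.8 at 300 μg/mL), and Incenp, Plk3 and Tpx2 followed within each other's spread, between 7.90 and 10.4 mean TPM.

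**Figure D1:**
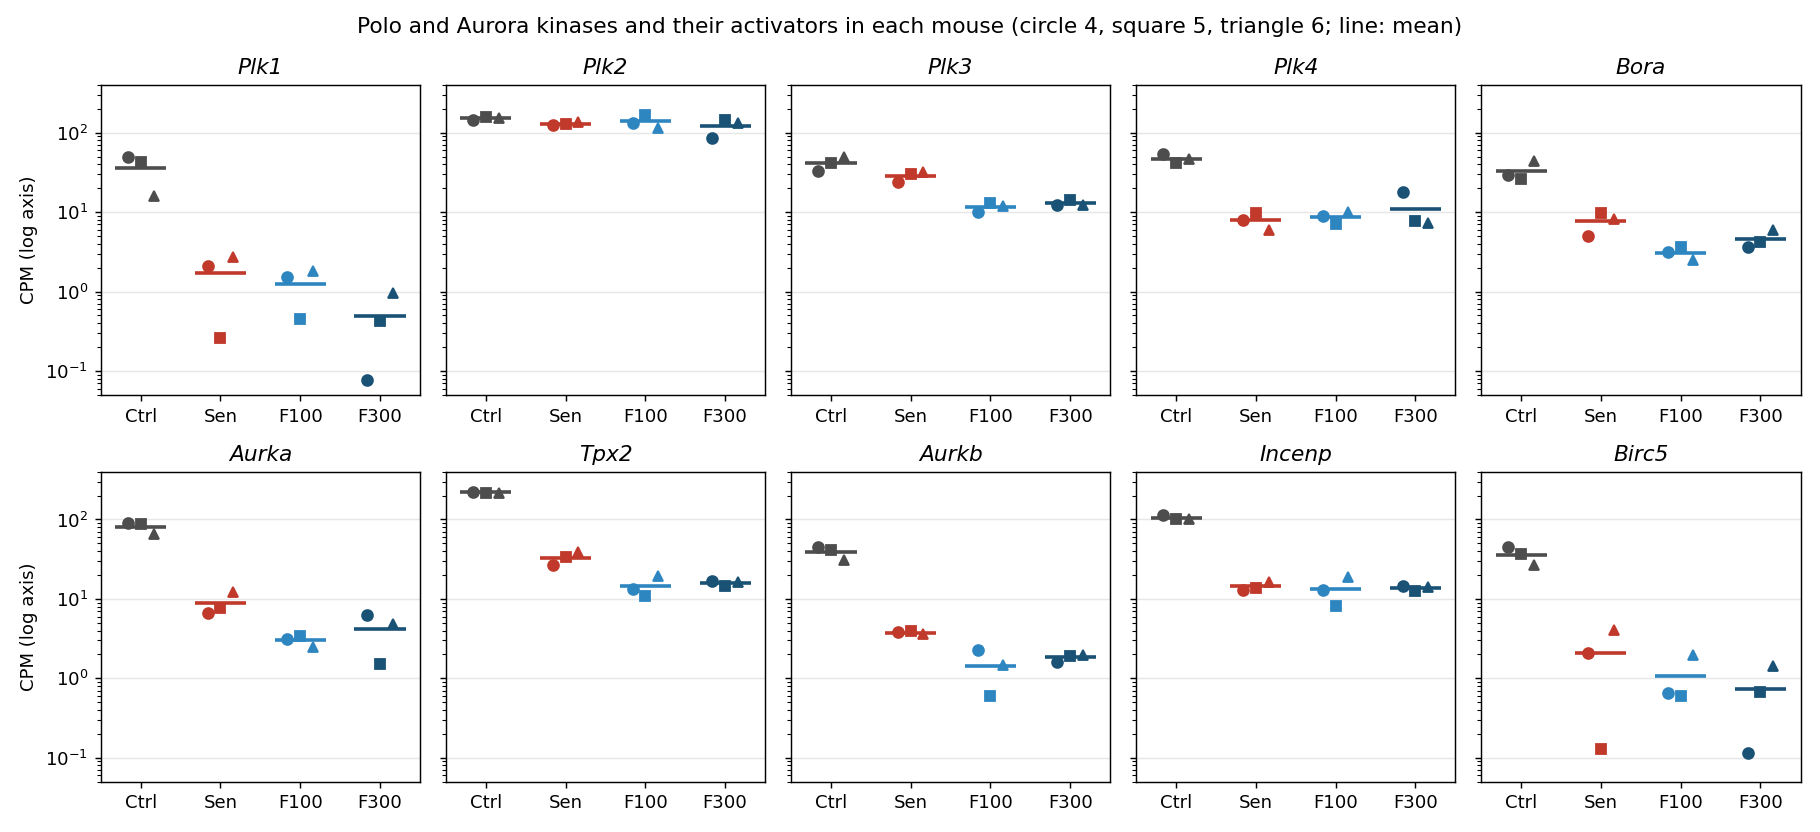
Expression of the 10 genes in CPM, on a log axis, in control (Ctrl), senescent (Sen) and senescent MEFs with Fucoidan-FV at 100 (F100) or 300 μg/mL (F300). Points are mice and lines are group means. Plk2 keeps its level near 121 to 152 CPM, Plk3 is lower in all treated samples than in all senescent ones, and the other 8 genes drop between control and senescent MEFs.

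Senescent MEFs were compared with control MEFs to see which of the kinases and activators differ after etoposide. A gene is called below when its adjusted p in edgeR's quasi-likelihood test is under 0.05 and its log2 fold change exceeds 1 in size. On this rule 8 of the 10 genes were called lower and 0 higher, all but Plk2 and Plk3, where 3.95% of all genes tested were called lower and 4.47% higher. For each of the 10 genes every senescent value lay below every control value, as it did for 12.9% of all genes. Since the genes were picked with these counts known, the counts describe the group and support nothing further.

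Plk1 (chr7:121758646-121769108, plus strand on GRCm39, as for the positions below), the kinase of mitotic entry, spindle assembly and cytokinesis, had 49.1, 42.3 and 16.2 CPM in control mice 4, 5 and 6, and 2.11, 0.259 and 2.75 CPM in the senescent samples of the same mice. Every senescent value lay well under the lowest control value, and the spread was wide in both groups. The log2 fold change was −4.38 (SE 0.86), the largest drop of the 10. Plk4 (chr3:40754427-40772633, plus strand), the kinase that starts centriole duplication, had 53.5, 41.0 and 47.1 CPM in control and 7.93, 9.83 and 6.01 CPM in senescent MEFs, a log2 fold change of −2.58 (SE 0.36).

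The activator of Plk1, Bora (chr14:99283627-99311976, plus strand), had 29.8, 26.3 and 43.5 CPM in the 3 control mice and 5.08, 9.74 and 8.15 CPM in the senescent samples. Its log2 fold change of −2.12 (SE 0.34) was the smallest among the 8 called genes. The kinase that acts with Bora, Aurka (chr2:172198109-172212849, minus strand), had 90.5, 87.0 and 65.7 CPM in control and 6.61, 7.63 and 12.3 CPM in senescent MEFs, a log2 fold change of −3.19 (SE 0.44). Tpx2 (chr2:152689854-152737245, plus strand), the spindle partner of Aurora A, varied least among control mice, with 223, 218 and 217 CPM against 27.0, 33.3 and 38.7 CPM in the senescent samples. The control value of mouse 5 joins libraries with 269.7 and 146 CPM, which lie much further apart than the 3 mice. The log2 fold change of Tpx2 was −2.73 (SE 0.23), the difference with the smallest error of the 8.

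Of the chromosomal passenger genes, Aurkb (chr11:68936467-68944764, plus strand), the kinase, had 45.5, 41.1 and 31.3 CPM in control and 3.80, 3.92 and 3.57 CPM in senescent MEFs (log2 fold change −3.38, SE 0.40). Incenp (chr19:9846569-9876924, minus strand), its scaffold, had 112, 100.6 and 100.2 CPM against 12.97, 13.8 and 16.4 CPM (log2 fold change −2.86, SE 0.28). Birc5 (chr11:117740040-117746581, plus strand), whose product also counts among the inhibitors of apoptosis, had 44.7, 36.6 and 26.8 CPM against 2.11, 0.129 and 4.04 CPM (log2 fold change −4.09, SE 0.92). All 3 genes were thus lower in each senescent sample than in any control, and the call of Birc5, but of no other member, was lost without senescent mouse 4 (log2 fold change −4.11, SE 1.17).

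Plk2 and Plk3 were the members not called in senescence. Plk2 (chr13:110531015-110537379, plus strand), a stress-induced kinase with roles at centrioles, had 144, 157 and 154 CPM in control and 124, 128 and 137 CPM in senescent MEFs, a log2 fold change of −0.23 (SE 0.20) that was not called. Plk3 (chr4:116985852-116991226, minus strand), a kinase induced early after stress or growth factors, had 33.4, 41.1 and 50.1 CPM in control and 23.6, 29.8 and 32.3 CPM in senescent MEFs, a log2 fold change of −0.54 (SE 0.23) that was not called either. For both genes the samples of the groups still lay apart, by a gap that is small beside those of the other 8.

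Plk1 and Birc5, the genes with the widest errors, had few counts in some libraries. Plk1 had 6 counts in senescent mouse 5 and 2 in mouse 4 at 300 μg/mL, and Birc5 had 3 in each of these libraries. The same libraries were low for a class of genes, those whose exonic bases lie over 95% in a single listed transcript. For 2221 such genes log2 CPM was set against each gene's mean over all samples of the 4 groups. The median deviation was −0.79 in senescent mouse 5, −0.95 in mouse 4 at 300 μg/mL and −1.36 in control mouse 6. It was 0.91 in mouse 5 at 100 μg/mL. Plk1 and Birc5 are not in this class. The class of middle shares holds both genes. Its median was −0.07 in senescent mouse 5, −0.11 in mouse 4 at 300 μg/mL and −0.18 in control mouse 6. It was 0.14 in mouse 5 at 100 μg/mL. Differences between the groups are part of these deviations. Birc5 (71.4%) and Plk1 (65.2%) have the largest shares of bases in a single listed transcript among the 10 genes. Tpx2 (6.90%) and Plk3 (9.16%) have the smallest. With offsets for this share, chosen after the data were seen, the log2 fold change in senescence was −4.38 for Plk1 and −4.10 for Birc5, and the same 8 genes were called. Without senescent mouse 5 the values were −3.87 and −3.54.

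Libraries 5(1) and 5(2) of control mouse 5 also differed. Tpx2 had 269.7 CPM in 5(1) and 146 in 5(2), Incenp 126 and 65.2, and Aurkb 50.8 and 27.5, whereas Plk2 had 99.5 and 219 and Plk1 31.9 and 52.9. Either library alone left 8 genes called in senescence.

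**Figure D2:**
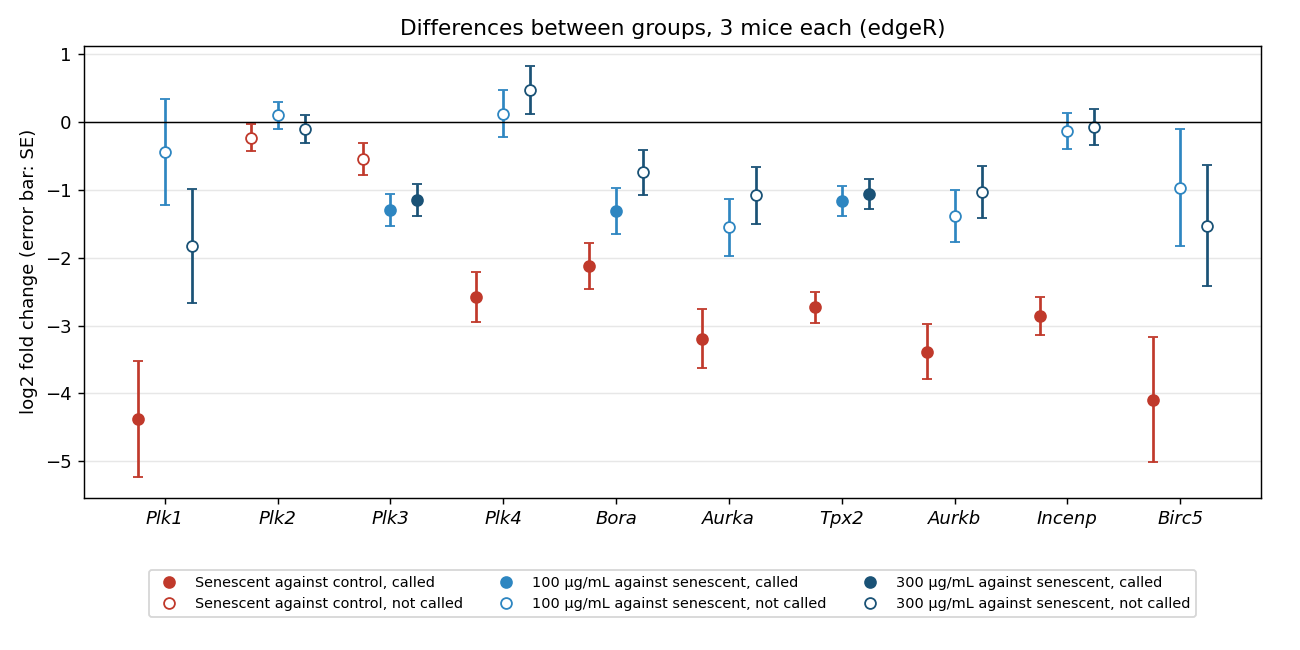
Log2 fold changes of the 10 genes, with their SE, in senescent against control MEFs and in each Fucoidan-FV dose against senescent MEFs, over 3 mice a group. Filled points are called. Senescence gives 8 filled points between −2.12 and −4.38, 100 μg/mL gives 3 (Plk3, Bora and Tpx2) and 300 μg/mL gives 2 (Plk3 and Tpx2).

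Senescent MEFs given Fucoidan-FV were compared with untreated senescent MEFs, dose by dose. Both comparisons use the same 3 senescent samples, so they are not independent. At 100 μg/mL, Plk3, Tpx2 and Bora were called lower, 3 of 10 genes, and 0 were called higher, where 1.6% of all genes were called lower and 1.1% higher. At 300 μg/mL, Plk3 and Tpx2 were called lower, 2 of 10 genes, and 0 higher, where the shares of all genes were 0.885% and 0.752%. No overlap with the senescent samples, at lower values, was seen for 5 genes at 100 μg/mL, beside 15% of all genes, and for 4 genes at 300 μg/mL, beside 10.2%.

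Plk3 had 10.02, 13.02 and 11.8 CPM in mice 4, 5 and 6 at 100 μg/mL and 12.1, 14.1 and 12.5 CPM at 300 μg/mL, against 23.6, 29.8 and 32.3 CPM in senescent MEFs. The 6 treated values formed a narrow band under every senescent value. The log2 fold change was −1.30 (SE 0.24) at the lower and −1.15 (SE 0.23) at the higher dose, and the paired differences ran from −1.44 to −1.19 and from −1.37 to −0.96 over the 3 mice. Plk3 was thus not called in senescence and called lower with treatment at both doses.

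Tpx2 had 13.5, 10.9 and 19.6 CPM at 100 μg/mL and 16.9, 14.4 and 16.2 CPM at 300 μg/mL, below the 27.0 to 38.7 CPM of the senescent samples in every mouse. Its log2 fold change was −1.17 (SE 0.22) and −1.06 (SE 0.22). Bora had 3.16, 3.64 and 2.49 CPM at 100 μg/mL, all under the senescent values, with a log2 fold change of −1.30 (SE 0.34), and 3.65, 4.23 and 5.89 CPM at 300 μg/mL, where it overlapped the senescent samples and had a log2 fold change of −0.74 (SE 0.33). With the mouse number as a block, Bora had a log2 fold change of −1.26 (SE 0.34) at 100 μg/mL and was not called, and its call held in only 1 of 18 alternatives.

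Aurka had 3.16, 3.41 and 2.49 CPM at 100 μg/mL and 6.28, 1.49 and 4.81 CPM at 300 μg/mL, against 6.61 to 12.3 CPM in senescent MEFs. All 6 treated samples lay below all senescent ones, although mouse 4 at 300 μg/mL came close to the lowest of them, and the log2 fold changes of −1.55 (SE 0.42) and −1.08 (SE 0.42) were not called. Aurkb had 2.25, 0.606 and 1.45 CPM at 100 μg/mL and 1.63, 1.88 and 1.99 CPM at 300 μg/mL, again below the 3.57 to 3.92 CPM of the senescent samples, with log2 fold changes of −1.38 (SE 0.39) and −1.04 (SE 0.38) that were not called. DESeq2 called both genes lower at 100 μg/mL, 5 of 10 in all, and neither at 300 μg/mL. Over all genes at 100 μg/mL DESeq2 called 306 lower and 527 higher, where edgeR called 240 and 165.

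The calls in both doses rest on few samples. At 100 μg/mL, 0 genes were called without mouse 4 of that dose, 1 without its mouse 5 or without senescent mouse 5 or 6, and 2 without its mouse 6 or senescent mouse 4. At 300 μg/mL, 0 genes were called without any 1 of the 3 treated mice or without senescent mouse 6, 1 without senescent mouse 5 and 2 without senescent mouse 4. No value of Plk3, Tpx2 or Bora changed its sign under any alternative in these comparisons.

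The remaining genes overlapped the senescent samples at both doses. Incenp had 12.8, 8.06 and 18.7 CPM at 100 μg/mL and 14.4, 12.7 and 14.1 CPM at 300 μg/mL, and its log2 fold changes were −0.13 (SE 0.26) and −0.07 (SE 0.26). Plk4 had 8.89, 7.00 and 9.96 CPM and then 18.0, 7.68 and 7.34 CPM, which gave log2 fold changes of 0.12 (SE 0.35) and 0.47 (SE 0.35). The latter value turned to −0.08 (SE 0.29) without mouse 4 of that dose, the sample with the high level. Plk2 had 134, 168 and 115 CPM and then 87.1, 143 and 133 CPM, the log2 fold changes being 0.10 (SE 0.20) and −0.10 (SE 0.20).

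Plk1 had 1.53, 0.454 and 1.80 CPM at 100 μg/mL and 0.0775, 0.427 and 0.954 CPM at 300 μg/mL, and Birc5 had 0.657, 0.606 and 1.97 CPM and then 0.116, 0.676 and 1.41 CPM. The log2 fold changes were −0.44 (SE 0.78) and −1.83 (SE 0.85) for Plk1 and −0.97 (SE 0.86) and −1.53 (SE 0.89) for Birc5. None was called, on 2 to 57 counts per treated library. With no filter beyond 1 count Plk1 was called lower at 300 μg/mL (log2 fold change −1.80, SE 0.53).

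Treated MEFs were also set against control MEFs, which share the control samples with the comparison of senescence. Called lower were 9 of the 10 genes at 100 μg/mL, beside 9.38% of all genes, and 9 at 300 μg/mL, beside 8.11%, in both cases all but Plk2. Plk3 had a log2 fold change of −1.84 (SE 0.24) and −1.69 (SE 0.24) against control, and Tpx2 one of −3.90 (SE 0.24) and −3.79 (SE 0.24). Between the doses 0 of the 10 genes were called by edgeR, where 0.00665% of all genes were called, and DESeq2 called 0. Of the 10 genes 0 had an unadjusted p under 0.05 in edgeR's test, beside 94 of all 15034. Plk3 differed between the doses by 0.15 (SE 0.23), Tpx2 by 0.11 (SE 0.22) and Bora by 0.57 (SE 0.34) on the log2 scale, 300 minus 100 μg/mL.

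Within the Polo family the make-up of the transcripts differed between the groups. By TPM, Plk2 made up 52.3% ± 5.01 (SD, n = 3) of the sum of the 4 kinases in control, 79.1% ± 1.51 in senescent MEFs, 86.7% ± 2.72 at 100 μg/mL and 85.5% ± 4.34 at 300 μg/mL. Plk1 went from 24.8% ± 7.12 in control to 1.96% ± 1.73 in senescent MEFs, and was at 1.74% ± 1.41 and 0.465% ± 0.531 in the treated groups. The share of Plk3 was 12.6% ± 2.43 in control, 15.003% ± 2.39 in senescent MEFs, 7.03% ± 0.375 at 100 μg/mL and 8.14% ± 0.893 at 300 μg/mL. Plk3 thus kept its share in senescence within the spread of the mice and had about the same smaller share at both doses. The sum of the 4 kinases was 194 ± 7.38 TPM in control, 118 ± 20.5 in senescent MEFs, 137 ± 22.8 at 100 μg/mL and 121 ± 25.9 at 300 μg/mL.

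**Figure D3:**
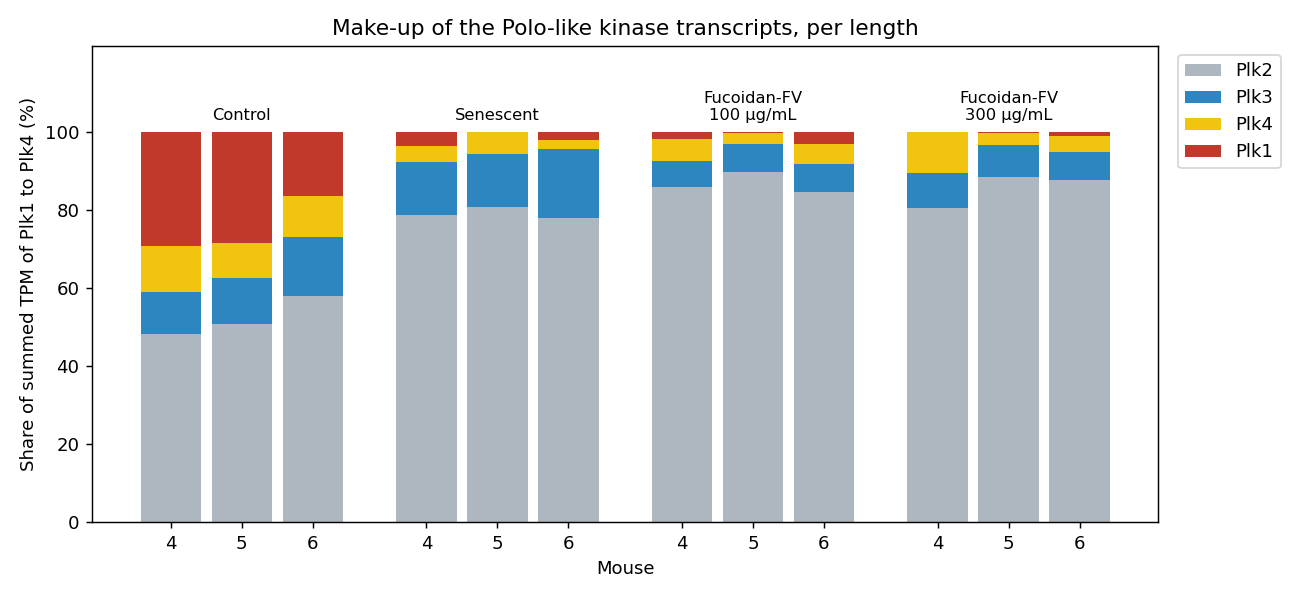
Share of each Polo-like kinase in the summed TPM of Plk1 to Plk4, per mouse, as stacked bars that add to 100%. Plk2 fills 48.2% to 57.9% of the bars in control mice and 77.8% to 80.8% in senescent samples, Plk1 shrinks from 24.8% to 1.96% on average, and Plk3 is narrower in the treated samples.

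In the passenger complex the scaffold and the kinase did not keep their ratio of TPM. Incenp over Aurkb was 1.46, 1.27 and 1.75 in control mice and 1.65, 2.17 and 2.13 in senescent samples, and these ranges overlap. It was 3.86, 7.38 and 6.06 at 100 μg/mL and 7.56, 4.07 and 5.59 at 300 μg/mL, above every untreated sample. These treated ratios rest on 16 to 72 expected counts of Aurkb, and edgeR called neither gene against senescent MEFs. The ratio of Tpx2 to Aurka was 1.35 ± 0.153 in control and 2.05 ± 0.654 in senescent MEFs, and 2.35 ± 1.04 and 2.86 ± 1.59 with treatment, with overlapping samples in each treated comparison.

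Over the 12 samples, log2 CPM of the 8 mitotic genes correlated in all 28 pairs, with Pearson's r between 0.717 and 0.979 and a median of 0.886. The points share 3 control samples that stand far above the rest, so these values mostly describe the step between control and senescent MEFs. Plk3 correlated with the 8 genes at a median r of 0.793 and Plk2 at 0.352. The genes most like Plk1 were 1700025G04Rik (r = 0.991), Top2a (0.986) and Mki67 (0.980). Those most like Tpx2 were Hnrnpa1 (0.998), Psat1 (0.996) and Kpna2 (0.992), those most like Plk3 were Khdrbs3 (0.990), Itga5 (0.987) and Slc20a1 (0.984), and those most like Aurka were Tyms (0.985), Shmt2 (0.984) and Umps (0.982). Plk4 was closest to Skp2 (0.980), Clspn (0.980) and Wdr90 (0.978), Aurkb to Mthfd1l (0.985), Psat1 (0.984) and Ccnf (0.980), Bora to Ifrd2 (0.978), Scarb1 (0.977) and Fen1 (0.972), and Incenp to Tcof1 (0.995) and Slc38a4 (0.989). Birc5 was closest to 1700025G04Rik (0.992), Plk1 (0.978) and Cdc25c (0.974), and Plk2 to Pdhx (0.904), Emx2os (0.889) and Tyw1 (0.889).

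Genes on the opposite strand share bases with 4 of the 10 genes, by the transcripts listed in the files on GRCm39, and how the counting treated strand is not given in the sources used here. Aurka shares 38.2% of its exonic bases with Fam210b, Plk1 7.00% with Gm44985, Plk3 3.23% with Dynlt4 and Incenp 2.99% with Gm50340. Fam210b had 1.08 to 5.65 CPM in control and 2.85 to 9.51 CPM in senescent MEFs, where Aurka had 6.61 to 12.3 CPM, and was called in neither senescence nor treatment. Fam210b at 100 μg/mL had 9.52, 13.1 and 4.53 CPM in mice 4, 5 and 6, where Aurka had 3.16, 3.41 and 2.49 CPM, and at 300 μg/mL it had 2.25, 10.5 and 6.68 CPM. The part of these reads in the values of Aurka was not tested.

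Genes that work with the kinases were described from a list of 43, of which 42 were tested. The list was drawn up with earlier results of these data known. The genes named are its largest called changes, so their adjusted p in edgeR is a description. In senescent against control MEFs 28 were called lower and 0 higher, where 3.95% and 4.47% of all genes were, and the median log2 fold change was −2.81, beside 0.07 over all genes. By role, the 6 genes of Polo docking and cytokinesis were all called lower, as were 7 of 8 genes of mitotic entry, 4 of 5 of centriole duplication, 4 of 5 of the passenger complex and its anchors, 3 of 6 of the transcription of G2/M genes, 3 of 7 of protein degradation in mitosis and 1 of 4 Aurora A cofactors. Ccnb1, cyclin B1, had 157 ± 10.98 CPM in control and 7.98 ± 2.72 CPM in senescent MEFs (n = 3 each), with a log2 fold change of −4.29 ± 0.64 (SE) at an adjusted p of 0.00087. Mybl2, which encodes B-MYB, had 20.1 ± 9.87 and 1.08 ± 0.496 CPM, a log2 fold change of −4.21 ± 0.65 (SE) at an adjusted p of 0.00103, and Cdc25c, a phosphatase that activates CDK1, 9.52 ± 1.41 and 0.523 ± 0.564 CPM, one of −4.16 ± 1.27 at an adjusted p of 0.0494.

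With Fucoidan-FV none of the 42 genes was called by edgeR at either dose. At 100 μg/mL the median log2 fold change was −0.20, 7 genes had an unadjusted p under 0.05, beside 2981 of all 15034, and DESeq2 called 0. At 300 μg/mL the median was −0.27, and 8 genes had an unadjusted p under 0.05, beside 2297 of all 15034. DESeq2 called 1, Ube2c, named here after its value was seen. Over all genes tested the medians were −0.02 and 0.00.

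Proliferation markers were called lower in senescence, with Mki67 going from 41.8 ± 25.5 to 1.75 ± 0.985 CPM at a log2 fold change of −4.57 ± 0.68 (SE) and an adjusted p of 0.000865, and Top2a, Pcna and Mcm2 with log2 fold changes of −4.56, −1.71 and −3.31. None of the 4 was called with Fucoidan-FV. Mki67 was at 1.97 ± 0.822 CPM at 100 μg/mL and 1.15 ± 0.765 at 300 μg/mL.

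Plk2 and Plk3 were set beside p53 targets and early response genes, the groups their induction is known from. Both groups were listed with earlier results known, and the genes named are the largest called changes, so adjusted p values here and below describe. Of 12 p53 targets 6 were called higher in senescence, beside 4.47% of all genes, and 0 lower. At both doses 0 were called by edgeR and 0 by DESeq2. At 100 μg/mL 1 had an unadjusted p under 0.05, beside 2981 of all 15034 genes. At 300 μg/mL 0 had one, beside 2297. Cdkn1a, which encodes p21, had 468 ± 83.2 CPM in control and 1652 ± 187 CPM in senescent MEFs, a log2 fold change of 1.82 ± 0.18 (SE) with an adjusted p of 6.79e-05. For Trp53inp1 the log2 fold change was 1.94 ± 0.44 (SE) with an adjusted p of 0.0121, and for Mdm2, the ubiquitin ligase of p53, 1.53 ± 0.25 with an adjusted p of 0.00174. Without control mouse 4, 5 or 6 or senescent mouse 4 the calls numbered 3, 2, 3 and 3. Plk2, itself known as a p53 target, lay at −0.23 in the same comparison.

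Of 16 early response genes 0 were called in senescence by edgeR, and 3 had an unadjusted p under 0.05, beside 3819 of all 15034 genes. At 100 μg/mL 4 of the 16 were called lower, beside 1.6% of all genes, and at 300 μg/mL 5, beside 0.885%, and 0 were called higher. Egr2, an early response transcription factor, had 36.4 ± 13.5 CPM in senescent MEFs and 2.47 ± 0.596 CPM at 100 μg/mL (log2 fold change −3.88, SE 0.82, adjusted p = 0.0206), and 2.02 ± 2.34 CPM at 300 μg/mL (−4.18, SE 0.83, adjusted p = 0.0243). Fosl1, a subunit of AP-1, had log2 fold changes of −3.20 ± 0.56 (SE) at an adjusted p of 0.00858 and −3.84 ± 0.58 at one of 0.00634. Dusp1, a phosphatase of MAP kinases, had −1.32 (SE 0.19, adjusted p = 0.00393) at 100 μg/mL, and Egr3, a relative of Egr2, −4.90 (SE 1.14, adjusted p = 0.045) at 300 μg/mL. Without senescent mouse 6 the calls numbered 2 and 2 at the lower and the higher dose, without senescent mouse 5 they numbered 3 and 1, and without mouse 5 or mouse 6 at 300 μg/mL 2 and 3 were left at that dose.

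**Figure D4:**
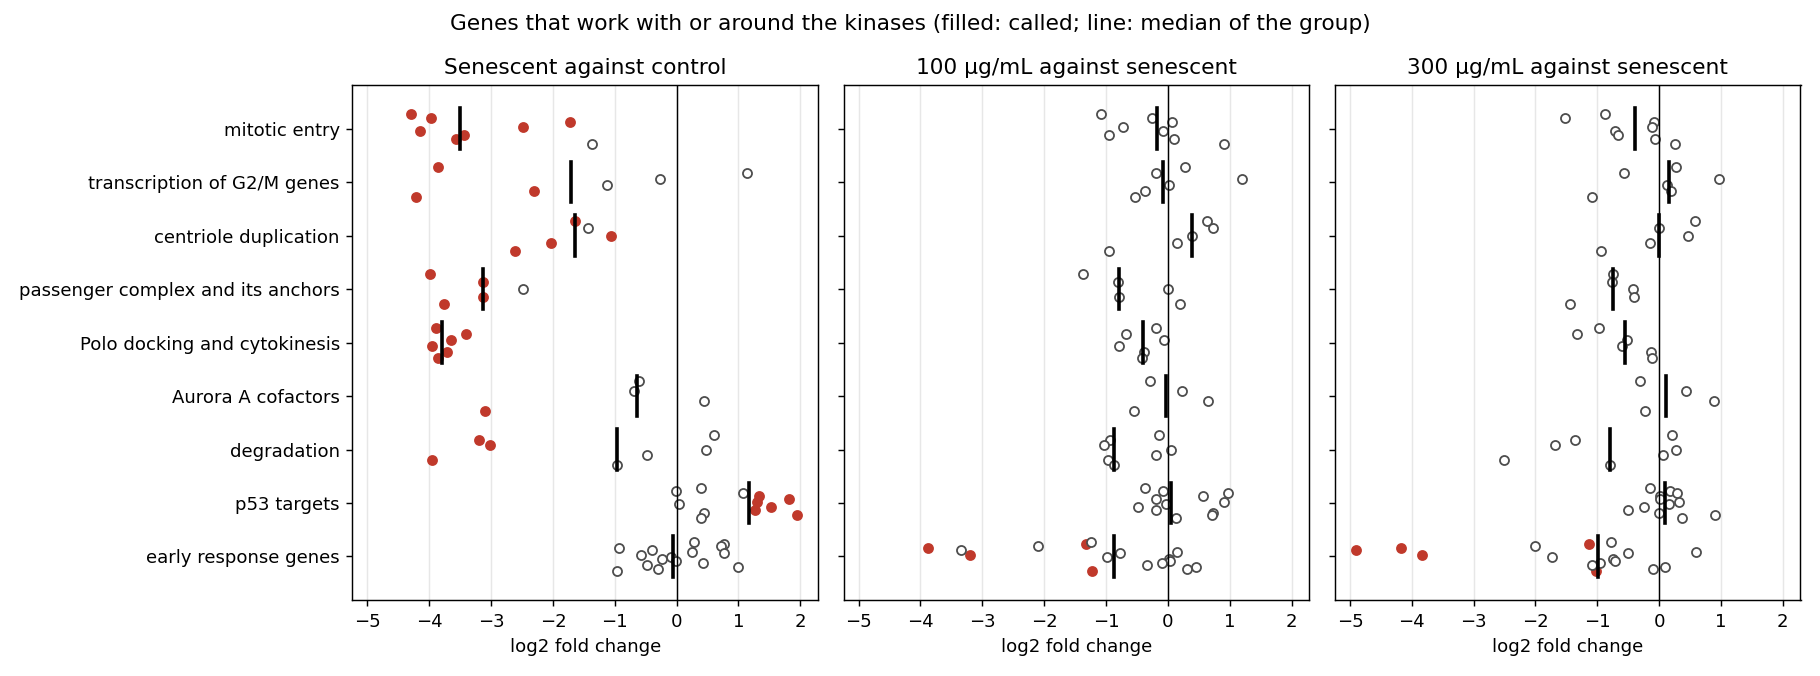
Log2 fold changes of the genes that work with or around the kinases, by role, in the 3 comparisons, with filled points for called genes and black lines for medians. Plk5, which was tested, is not drawn. In senescence the 28 called mitotic partners lie filled on the left and 6 of 12 p53 targets filled on the right, and with Fucoidan-FV the filled points are 4 and 5 early response genes.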

How the data were processed

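RNA of control, senescent and Fucoidan-FV-treated MEFs was sequenced from a stranded total RNA kit in 13 libraries. Per the submitters' processing notes and the paper, the authors used FastQC 0.12.1, Trimmomatic, STAR 2.7.11b on GRCm39 (release 109) and RSEM 1.3.1. The deposited values are RSEM's expected counts, without normalization, and its TPM and FPKM values, which the authors' software scales for length and library size. FPKM was not used. A deposited table of all libraries differed from the single libraries by at most 0. Whether RSEM was run with a strand setting is not given in the sources used here.

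Expected counts were rounded, and libraries 5(1) and 5(2) summed. Genes were kept by filterByExpr (minimum count 10, total 15). One model over the 4 groups was fitted in R 4.3.3 with edgeR 4.0.16 (quasi-likelihood test, TMM factors, Benjamini-Hochberg adjustment over 15034 genes), and tested on simulated data. Of 57010 genes 56310 were matched to symbols. Replicates are mice by label, and p-values measure the spread between these samples. The labels pair samples by mouse number, while deviations from the group means correlated at a median of −0.00612 over 18 same-number pairs (−0.204 to 0.425, 8 pairs over 0.1). Totals of 22782536 to 31278750 counts set the precision.

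The members and lists were chosen with earlier results of these data known. The genes named beside the members are up to 3 called genes with the largest increase and up to 3 with the largest decrease per list and comparison with senescent MEFs, the 3 genes most correlated with each member (log2 CPM, prior count 2, 1 of them not reported here), 4 proliferation markers and genes on the opposite strand. Alternatives were DESeq2 1.42.0, RLE factors, other filters, fits of 2 groups, other uses of control mouse 5, the adjusted p alone, a block for the mouse, every mouse removed in turn, and limma 3.58.1 on log2(TPM + 0.5).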

Additional observations from a re-analysis of the deposited data

How the results depend on the processing

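The 8 calls among the 10 genes in senescence, and the 9 at each dose against control MEFs, kept within 1.5 times under every alternative run, with 6 of 8 tested genes called in senescence where at least 10 counts in every sample were required, a filter that Plk1 and Birc5 did not pass. The counts at 100 μg/mL against senescent MEFs (3) and at 300 μg/mL (2) were less steady. They were 0 and 0 in fits of only the 2 groups compared and 0 and 0 with limma on log2 TPM. DESeq2 gave 5 at 100 μg/mL, and library 5(2) alone, or 5(1) and 5(2) as separate samples, gave 1 at 300 μg/mL. With each mouse left out in turn, 7 to 8 genes were called in senescence, 0 to 2 at 100 μg/mL and 0 to 2 at 300 μg/mL. Partner genes at 300 μg/mL numbered 1 with DESeq2 and 2 without a filter beyond 1 count, against 0. The p53 and early response genes called in senescence (6) numbered 3 in the fit of 2 groups, 3 with library 5(2) alone and 3 to 5 with a mouse left out. At 100 μg/mL (4) they numbered 2 with limma on log2 TPM and 2 to 4 with a mouse left out. At 300 μg/mL (5) they numbered 3 with at least 10 counts in every sample, 2 in the fit of 2 groups, 2 with limma on log2 TPM and 1 to 4 with a mouse left out. The causes were not tested, beyond the smaller number of samples or genes in some of these fits.

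The mouse number as a block, which pairs samples by label, gave 8, 2 and 2 genes in the 3 comparisons, losing Bora at 100 μg/mL, and 5 in place of 6 p53 and early response genes in senescence, losing Phlda3. It changed no other count. The members' log2 fold changes had 1068 alternative values, set against each gene's SD of log2 CPM within groups, pooled over the groups. Of these values 1024 moved by less than that SD and 44 by more, and 0 changed the sign of a called difference. Lost calls, and sign changes of differences that were not called, do not enter the last number. The median log2 fold change of all genes was 0.34 at 100 μg/mL and 0.26 at 300 μg/mL on the log2 TPM scale and 0.11 at 100 μg/mL with DESeq2, against −0.02 and 0.00 in the reported fit, and Plk3 and Tpx2 were lower on both. Plk1 and Birc5 had the lowest mean counts of the 10 genes in senescent and treated MEFs, and Plk1 was called at 300 μg/mL with no filter beyond 1 count.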

Other observations

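Plk5, the fifth Polo-like kinase was outside the 10 genes. It had 0 counts in each of the 3 control mice and 1, 0 and 0 in senescent mice 4, 5 and 6. At 100 μg/mL it had 1, 14 and 15 counts, and at 300 μg/mL 0, 16 and 10. Both treated groups overlapped the senescent samples through mouse 4, and edgeR called neither difference (adjusted p = 0.197 and 0.273). Aurkc, the third Aurora kinase, reached 9 counts at most and did not pass the filter.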
